A study of Mus musculus with 8 samples.

Results

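Zfp genes are mouse genes named for zinc finger proteins, and 394 protein-coding genes of the deposited table carry a name of Zfp followed by a number. The set described here holds the 181 of them with at least 50 counts in 4 or more of the 8 libraries, out of 54532 genes in all. The members were thus selected on their raw counts, the same values the comparison below uses, and their levels are given as a description. The libraries came from neutrophils of Balb/c mice bearing 2208L tumours, mouse mammary tumour cells implanted into the mammary fat pad. The mice were untreated according to the labels, and the cells were sorted by flow cytometry into ICAM1high and ICAM1low cells, 4 biological replicates each. ICAM1, or CD54, is an adhesion molecule, and the mice carried no genetic change that the labels name. Tumours were taken at 1 cm in diameter. The labels call them biological replicates without tying each to its own animal; the p-values therefore cover the spread among these samples, which may be partly technical. Same-numbered libraries of both fractions also share a number in their library names, and the labels do not say whether they came from one tumour.

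Most zinc fingers are short loops held by a zinc ion, and arrays of the C2H2 kind read DNA sequence. Many mouse Zfp genes also encode a KRAB domain, which recruits the co-repressor TRIM28 and the histone methyltransferase SETDB1, and such proteins are best known for silencing transposable elements. The name also covers unrelated proteins: Zfp36, Zfp36l1 and Zfp36l2 encode CCCH zinc finger proteins that bind AU-rich elements of mRNA and bring in the deadenylase complex CCR4-NOT, which limits cytokine mRNA in myeloid cells.

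Library totals ran from 10328575 to 22751975 counts. Summed over 13 macrophage markers, the level was 10660 to 17400 CPM in ICAM1high and 1233 to 1882 CPM in ICAM1low, and summed over 12 neutrophil markers it was 10150 to 13910 and 43050 to 84760 CPM. CPM is the usual depth-scaled count, taken here after TMM scaling, which corrects for differences in library makeup. Of these markers 12 of 13 and 12 of 12 were called, higher and lower in ICAM1high respectively, with median log2 fold changes of 4.05 and -2.16, and none was at 0 in all libraries. Summed markers of T and NK cells, B cells, dendritic cells, fibroblasts and endothelium stayed under 120 CPM in every library, and those of epithelium and tumour were at 113.5 to 166.9 CPM in ICAM1high and 265.6 to 470.8 CPM in ICAM1low. The part of these cell types in the results below was not tested. In bulk samples, fewer cells of a type and less RNA per cell cannot be told apart. ICAM1high replicate 1 and ICAM1low replicate 4 stood apart: among the members ICAM1high replicate 1 was the lowest of its fraction for 58.6%, against 39.3% of all genes tested, and ICAM1low replicate 4 for 54.1%, against 39.0%. At the high end, ICAM1high replicate 4 was the highest of its fraction for 41.4%, against 26.8% of all genes tested. ICAM1low replicate 1 was the highest of its fraction for 42.5%, against 30.4%.

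Upstream sequences are shown because their genes are among the members that differed most in each direction or, for Zfp36l1, belong to the CCCH family described below. They are the 250 bases before the first start that RefSeq lists for each gene (GRCm38.p6, the build of mm10), written 5′ to 3′ on the strand of the gene. Capitals mark matches on either strand to GGGCGG (a GC box), ACTACAA (part of the ZFP143 site) or TGANTCA (AP-1), and no 2 matches shown overlap. Zfp36l1 (chr12:80113014-80113263, minus strand) and Zfp821 (chr8:109705258-109705507, plus strand) were lower in ICAM1high, and Zfp367 (chr13:64153200-64153449, minus strand) and Zfp810 (chr9:22307639-22307888, minus strand) were higher.
Zfp36l1: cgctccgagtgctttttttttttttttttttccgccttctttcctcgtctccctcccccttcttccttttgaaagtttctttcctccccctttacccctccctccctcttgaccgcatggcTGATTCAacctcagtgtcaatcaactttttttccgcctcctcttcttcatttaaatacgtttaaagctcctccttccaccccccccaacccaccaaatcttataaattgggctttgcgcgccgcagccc
Zfp821: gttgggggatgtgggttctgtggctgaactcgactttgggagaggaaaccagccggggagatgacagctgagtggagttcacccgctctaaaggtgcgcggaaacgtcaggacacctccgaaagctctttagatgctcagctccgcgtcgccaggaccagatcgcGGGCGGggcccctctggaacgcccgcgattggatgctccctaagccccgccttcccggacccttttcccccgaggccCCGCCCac
Zfp367: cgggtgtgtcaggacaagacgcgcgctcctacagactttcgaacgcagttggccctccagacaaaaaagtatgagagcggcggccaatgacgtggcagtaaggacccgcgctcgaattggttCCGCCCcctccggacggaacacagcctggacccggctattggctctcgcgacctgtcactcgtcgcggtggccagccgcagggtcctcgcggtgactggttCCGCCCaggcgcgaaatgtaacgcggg
Zfp810: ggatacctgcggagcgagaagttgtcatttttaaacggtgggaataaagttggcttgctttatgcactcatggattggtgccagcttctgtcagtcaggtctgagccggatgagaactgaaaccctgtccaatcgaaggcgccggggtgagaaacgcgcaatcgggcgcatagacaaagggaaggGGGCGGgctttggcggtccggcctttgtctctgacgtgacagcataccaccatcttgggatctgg
The GC box stands in the windows of Zfp821, Zfp367 and Zfp810, and the AP-1 letters in that of Zfp36l1. RefSeq windows were matched for 146 of the 181 members. A GC box was in 54.8% of them, against 32.9% of the windows of all 27025 genes in that table, and the median window held 13 CpG dinucleotides, against 6. The ZFP143 letters were in 4.79% against 2.98%, and the AP-1 letters in 5.48% against 6.87%. Among 30 matched members higher in ICAM1high and 12 lower, 46.7% and 66.7% had a GC box. A match describes these letters and is no evidence of binding.

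The members split unevenly between the fractions. In ICAM1high 36 members were higher and 18 were lower by edgeR's quasi-likelihood test at an adjusted p under 0.05, and 127 did not pass. The 36 ranged from 0.49 (Zfp710) to 3.61 (Zfp991) in log2 fold change, and the 18 from -0.41 (Zfp384) to -1.66 (Zfp821). Called in either direction were 29.8% of the members, against 42.1% of all genes tested. Of all 14051 genes tested, 22.6% were higher and 19.6% were lower, whereas the shares of the members were 19.9% and 9.94%. Among all tested genes that meet the same count floor, 25.5% were higher and 22.9% lower. The median log2 fold change (ICAM1high over ICAM1low) was 0.28 over the members and 0.08 over all genes tested. At least 2-fold differences past the threshold numbered 21 higher and 6 lower. The floor favours genes that are high in one fraction: 11 members reached 50 counts in ICAM1high libraries only and 0 in ICAM1low libraries only, and 9 of those 11 are among the 36. Among the 114 members at the floor in all 8 libraries, 13 were higher (11.4%) and 16 lower (14%), with a median of 0.04. Without ICAM1high replicate 2 those counts were 8 and 10, when 16.2% and 14.9% of all genes were called. Without ICAM1low replicate 3 the lower count was 9, when 16.4% of all genes were lower.

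The balance of directions differed between TMM and library totals. Scaled by library totals alone, 121 members were higher and 2 lower, against 48.5% and 5.97% of all genes, and the median of all genes moved from 0.08 to 0.76. The members' median was then 0.96. Only Zfp36 and Zfp821 stayed lower past the threshold on that scale. All fold changes below are on the TMM scale. The counts also varied with single libraries, as did those of all genes. Without ICAM1high replicate 2 or 3, 23 and 22 members were higher, against 16.2% and 16.8% of all genes. Leaving out ICAM1low replicate 3 gave 10 lower, against 16.4% of all genes. Without both ICAM1high replicate 1 and ICAM1low replicate 4 there were 44 higher and 21 lower, against 25.5% and 24.5% of all genes.

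**Figure D1:**
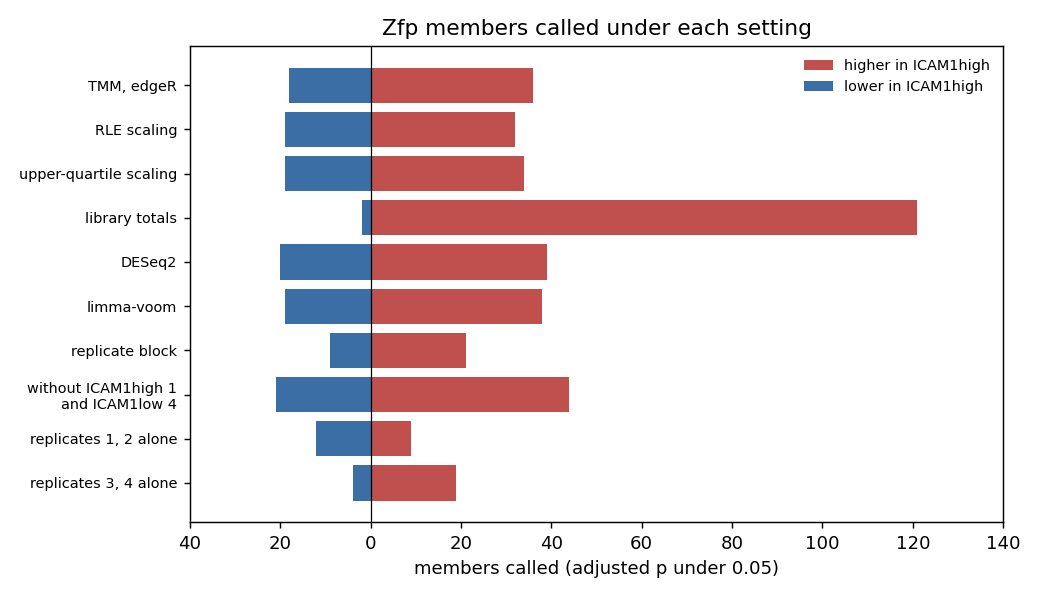
Number of members called higher (right, red) or lower (left, blue) in ICAM1high at an adjusted p under 0.05, by fit. TMM with edgeR gave 36 and 18, and library totals gave 121 and 2.

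The library names run in 2 stretches of numbers, one for replicates 1 and 2 and one for replicates 3 and 4. In replicates 1 and 2 alone 9 members were higher and 12 lower, against 11.9% and 9.89% of all genes. In replicates 3 and 4 alone 19 were higher and 4 lower, against 11.4% and 11% of all genes. A direct edgeR test of this difference called 0 of 181 members. It rested on 2 libraries of each fraction in each stretch, so differences could go uncalled. At an unadjusted p under 0.05 that test had 16 members (8.84%), against 11.4% of all genes tested, and 0 of all 14051 genes passed after adjustment. The first stretch holds ICAM1high replicate 1, lowest of its fraction for 58.6% of members, and the second holds ICAM1low replicate 4, lowest for 54.1%. Low values there would lower fold changes in the first stretch and raise them in the second. A difference between the stretches therefore cannot be separated from these single libraries.

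The CCCH family held most of the members' RNA and was lower in ICAM1high in all 3 measured genes. Together Zfp36, Zfp36l1 and Zfp36l2 took 51.6% to 66.9% of the members' counts in ICAM1high libraries and 74.5% to 82.2% in ICAM1low libraries. Per kb of deposited gene length they were also the 3 highest members, at 2084, 161 and 432 CPM per kb over all libraries, ahead of Zfp263 at 49.3 and Zfp703 at 44.0. The median member stood at 1.97 CPM per kb.

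Zfp36 encodes tristetraprolin, the founding member of the family (ENSMUSG00000044786, mm10 chromosome 7, 28376784 to 28380253). It measured 5024, 3313, 2913 and 3013 CPM in ICAM1high replicates 1 to 4 and 10760, 9745, 10116 and 12961 CPM in ICAM1low. Every ICAM1high library lay below every ICAM1low library, and the log2 fold change was -1.61 (SE 0.21, adjusted p = 0.000231, edgeR). With library totals it was -0.93. Zfp36 alone made up 0.374% to 0.592% of all counts in ICAM1high and 0.786% to 0.913% in ICAM1low.

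Zfp36l1 (ENSMUSG00000021127, chromosome 12, 80107754 to 80113013) measured 259, 268, 341 and 404 CPM in ICAM1high and 672, 595, 647 and 669 CPM in ICAM1low. The fractions did not overlap, and the log2 fold change was -1.02 (SE 0.17, adjusted p = 0.00105, edgeR). Zfp36l2 (ENSMUSG00000045817, chromosome 17, 84183931 to 84187947) measured 750.2, 1288, 954 and 1072 CPM against 2293, 2698, 2095 and 1053 CPM. Here ICAM1low replicate 4 fell within the ICAM1high range while the other 3 ICAM1low libraries lay above it, and its log2 difference was -1.002 (SE 0.28, adjusted p = 0.0148, edgeR). Neither of the paralogues passed with library totals, at -0.33 and -0.34, and Zfp36l2 did not pass in replicates 3 and 4 alone.

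**Figure D2:**
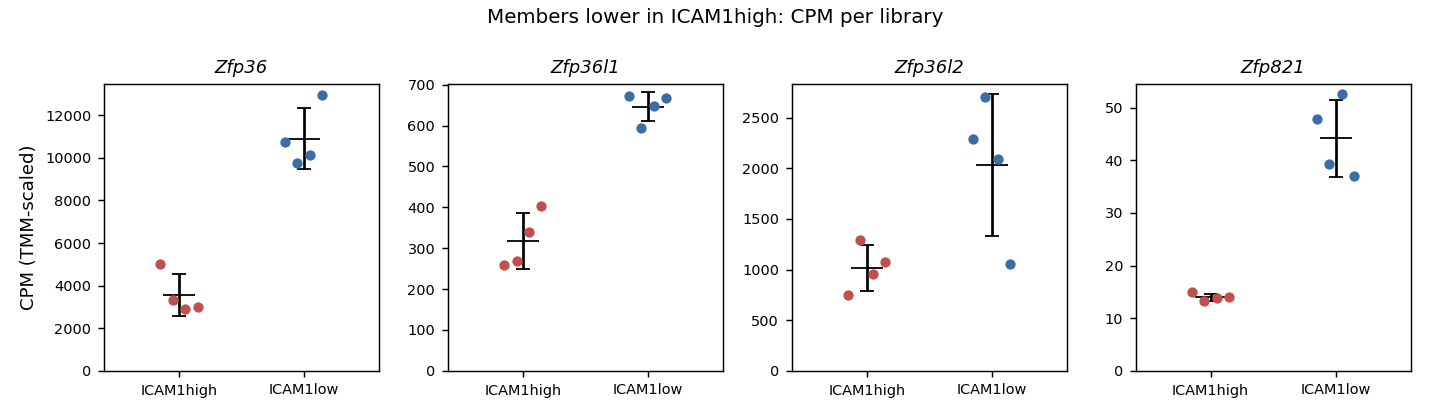
CPM (TMM-scaled, linear axis from 0) of 4 members in each library (points), with the mean and SD of each fraction (black, n = 4). Zfp36, Zfp36l1 and Zfp821 do not overlap between fractions, and Zfp36l2 does in 1 ICAM1low library. Of all genes tested, 18% had every ICAM1high library below every ICAM1low library.

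Partners and targets of this family moved in both directions. Of 24 genes of deadenylation and decapping 4 were higher and 4 lower (16.7% each, against 22.6% and 19.6% of all genes), with a median of 0.11. With library totals 17 were higher and 2 lower, against 48.5% and 5.97% of all genes on that scale. Dcp2, the decapping enzyme, was at 20.3 ± 4.77 against 5.94 ± 1.08 CPM (SD, n = 4), or 1.77 in log2 (adjusted p = 0.000317, edgeR). Mapkapk2, the kinase that phosphorylates tristetraprolin, was lower at -1.03, and Ddx6, a helicase of mRNA decay, at -1.47. The other calls were Cnot7 at -0.87, Tob1 at -0.90, Cnot10 at 0.46, Cnot9 at 0.65 and Dcp1a at 0.87, named after their values were seen. Of 13 tested AU-rich mRNAs known to be bound by ZFP36, 2 were higher (15.4%) and 5 lower (38.5%), against 22.6% and 19.6% of all genes, with a median of -0.25. Il1b, an inflammatory cytokine, was at 7387 ± 1575 against 21709 ± 2506 CPM (SD, n = 4), at -1.56, Cxcl2, a neutrophil chemoattractant, at -1.53, and Fos at -1.31. Ier3 at -1.65 and Ptgs2 at -1.06 were also lower, whereas Il10 at 2.34 and Il23a at 0.69 were higher, all 4 named after their values were seen. With library totals 6 of the 13 were higher and 4 lower, against the same 48.5% and 5.97% of all genes.

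Proteins were sorted by what a search of their translated GENCODE M21 coding sequence found. A KRAB domain was found in 74 members, 81 others held at least 3 C2H2 fingers, 4 had a SCAN domain without KRAB, 19 had fewer than 3 C2H2 fingers, and 3 were the CCCH genes. The members held a median of 9 C2H2 fingers, up to 37 in Zfp142. KRAB genes were scarcer among the members than among all 394 Zfp genes, at 40.9% against 60.7%: 31.0% of the 239 KRAB genes reached the count floor, against 69.0% of the 155 others.

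KRAB members were low in level, and smaller shares of them than of all genes were called higher or lower in ICAM1high. Their median level was 7.07 CPM in ICAM1high and 5.20 CPM in ICAM1low. Of 74, 13 were higher and 3 lower (17.6% and 4.05%, against 22.6% and 19.6% of all genes), with a median log2 fold change of 0.46. Without ICAM1high replicate 2, 3 or 4 there were 8 higher, against 16.2%, 16.8% and 18.7% of all genes. Without ICAM1low replicate 3 there was 1 lower, against 16.4%. Without both libraries that stood apart there were 18 higher and 4 lower, against 25.5% and 24.5%. The 3 lower were Zfp719 at -0.88, Zfp51 at -0.70 and Zfp868 at -0.52, the last 2 named after their values were seen. The 13 higher include genes such as Zfp991 and Zfp810 that reached the count floor in ICAM1high libraries only. Their entry into the set favoured that direction, as it did for Zfp629 and Zfp367 in the classes below. No class was recounted without such genes, so the balance of directions within a class partly reflects the floor. Among the 81 other C2H2 members 19 were higher and 9 lower, with a median of 0.25. Among the 19 with few fingers 4 were higher and 2 lower, with a median of 0.13. With library totals 52 KRAB members were higher and 0 lower, and 53 and 1 of the 81 other C2H2 members were. On that scale 48.5% of all genes were higher and 5.97% lower.

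**Figure D3:**
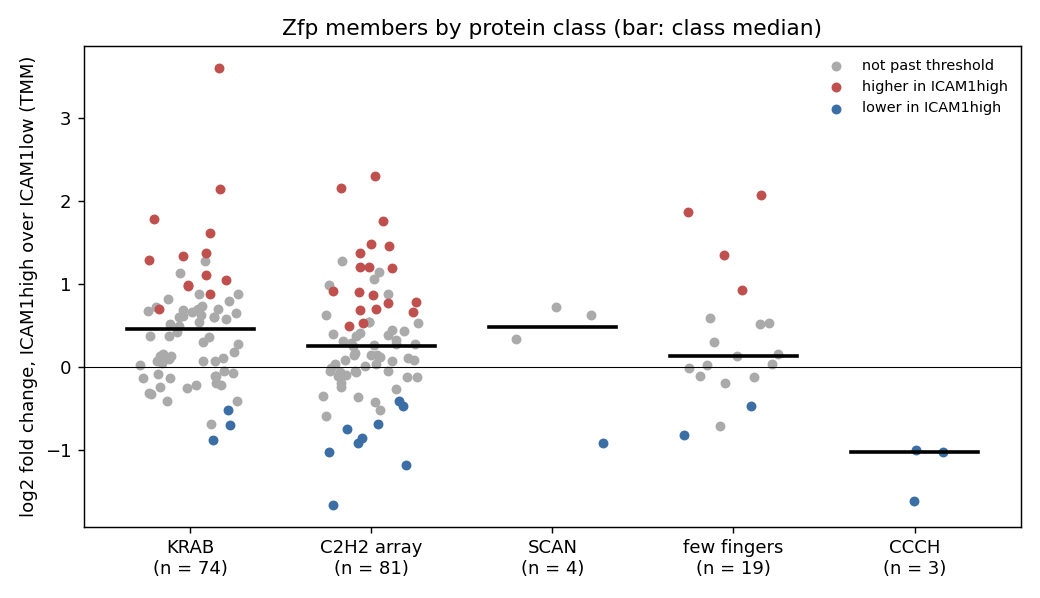
Log2 fold change (ICAM1high over ICAM1low, TMM) of each of the 181 members by protein class, coloured by whether it passed an adjusted p of 0.05, with the class median as a bar. The median was 0.46 in KRAB, 0.48 in the 4 SCAN genes and -1.02 in CCCH.

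The largest increase of the members named here was in the KRAB gene Zfp991 (ENSMUSG00000067916, chromosome 4, 147132038 to 147180579). It measured 6.83, 8.30, 10.6 and 10.1 CPM in ICAM1high and 1.47, 0.917, 0.518 and 0.0624 CPM in ICAM1low, the last of which is a single count. All ICAM1high libraries lay above all ICAM1low libraries, and the log2 fold change was 3.61 (SE 0.55, adjusted p = 0.00063, edgeR). It met the count floor in ICAM1high only, so its place in the set already rests on being high there. Zfp991 lies in a run of Zfp genes on chromosome 4 with Zfp992 (146449023 to 146470292), at 2.14 (adjusted p = 0.0025), and Zfp984, at 0.28 (adjusted p = 0.248), both named after their values were seen. Such neighbours are related in sequence, and reads shared between them may have been counted for either.

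The KRAB genes Zfp810 and Zfp398 were among the 8 largest increases of members whose average log2 CPM was 2 or more, a limit that leaves out Zfp41 (2.16) and Zfp992. Zfp810 (ENSMUSG00000066829, chromosome 9, 22276748 to 22307648) measured 6.58, 8.81, 7.48 and 5.26 CPM in ICAM1high and 2.20, 2.57, 2.76 and 0.624 CPM in ICAM1low. The fractions did not overlap, and the log2 fold change was 1.79 (SE 0.40, adjusted p = 0.00525, edgeR). Zfp810 too met the count floor in ICAM1high only and is a member through that fraction. Zfp398 was at 10.9 ± 2.97 against 3.58 ± 1.80 CPM (SD, n = 4), with a log2 fold change of 1.61. In ICAM1low its replicates 1 to 4 held 5.14, 4.95, 2.88 and 1.37 CPM, all below the lowest ICAM1high library at 6.75 CPM.

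Some KRAB genes known for silencing were among the members. Of 10 such genes listed for repeats and imprints, 3 were members, near the 31.0% of all 239 KRAB genes that reached the count floor. Zfp809, which silences murine leukaemia proviruses, measured 8.02, 11.4, 12.98 and 11.4 CPM in ICAM1high and 5.14, 3.85, 6.79 and 6.43 CPM in ICAM1low, without overlap (log2 fold change 0.98, SE 0.25, adjusted p = 0.00951, edgeR). Zfp445, which guards imprinted regions, did not pass: it ranged from 26.04 to 67.2 CPM in ICAM1high and from 12.04 to 46.2 CPM in ICAM1low, at 0.88 (SE 0.39, adjusted p = 0.09). Zfp568, which represses a placental Igf2 transcript, was at 0.69 (SE 0.32, adjusted p = 0.101). With library totals the 3 were all called higher, as were 48.5% of all genes.

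The co-repressor machinery that KRAB proteins use was called higher more often than lower. Of 26 genes 13 were higher and 2 lower, against 22.6% and 19.6% of all genes, with a median of 0.55. Mta1, a NuRD subunit, was at 30.5 ± 2.72 against 15.6 ± 1.01 CPM (SD, n = 4), or 0.97 in log2 (SE 0.15, adjusted p = 0.000613, edgeR). Dnmt1, the maintenance DNA methyltransferase, was at 1.07, and Smarcad1, a chromatin remodeller, at 1.10. The methyltransferase gene Setdb1 was at 0.62 (adjusted p = 0.0299) and Trim28 at 0.37, which did not pass, both named after their values were seen. The 2 lower genes, also named after their values were seen, were Daxx, a histone chaperone, at -0.56 and Hdac1 at -0.52. With library totals 21 were higher and 0 lower, against 48.5% and 5.97% of all genes on that scale.

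Among members without KRAB, Zfp821 and Zfp362 differed most in each direction. Zfp821 (ENSMUSG00000031728, chromosome 8, 109705546 to 109724932) measured 14.9, 13.2, 13.8 and 14.0 CPM in ICAM1high and 47.9, 39.2, 52.6 and 37.1 CPM in ICAM1low. Its ICAM1high libraries were close together and all far below the ICAM1low libraries (log2 fold change -1.66, SE 0.16, adjusted p = 4.57e-05, edgeR), or -0.98 with library totals. Zfp362 (ENSMUSG00000028799, chromosome 4, 128773088 to 128806045) measured 13.9, 17.5, 13.8 and 14.0 CPM against 2.20, 4.65, 2.59 and 2.50 CPM. It was higher in every ICAM1high library, at 2.31 (SE 0.27, adjusted p = 0.000127, edgeR).

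The other large increases were of low-level genes. Zfp367 (ENSMUSG00000044934, chromosome 13, 64133018 to 64153202) measured 4.73, 8.01, 6.52 and 8.08 CPM against 2.05, 1.47, 1.67 and 1.31 CPM, at 2.07 (SE 0.28, adjusted p = 0.000326, edgeR). Like Zfp991, it met the count floor in ICAM1high only, as did Zfp629, so these genes entered the set through the fraction in which they are high. Zfp318, which is needed for IgD expression in B cells, was at 10.2 ± 2.46 against 2.78 ± 1.70 CPM (SD, n = 4), at 1.87 (SE 0.50, adjusted p = 0.0129, edgeR). ICAM1low replicate 4 held only 0.437 CPM. The gene did not pass in replicates 1 and 2 alone or in replicates 3 and 4 alone. Across all libraries summed B cell markers were at 44.9 to 116.3 CPM in ICAM1high and 7.61 to 18.8 CPM in ICAM1low. Their part in the Zfp318 difference was not tested. Zfp629 was at 1.75 and Zfp219 at 1.48. Zfp219 overlaps Arhgef40 on the other strand, and without a stated strand setting their reads cannot be told apart. In all, 22 members overlap a gene whose counts reach 10% of their own. Without those 34 members were higher and 18 lower of 159.

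**Figure D4:**
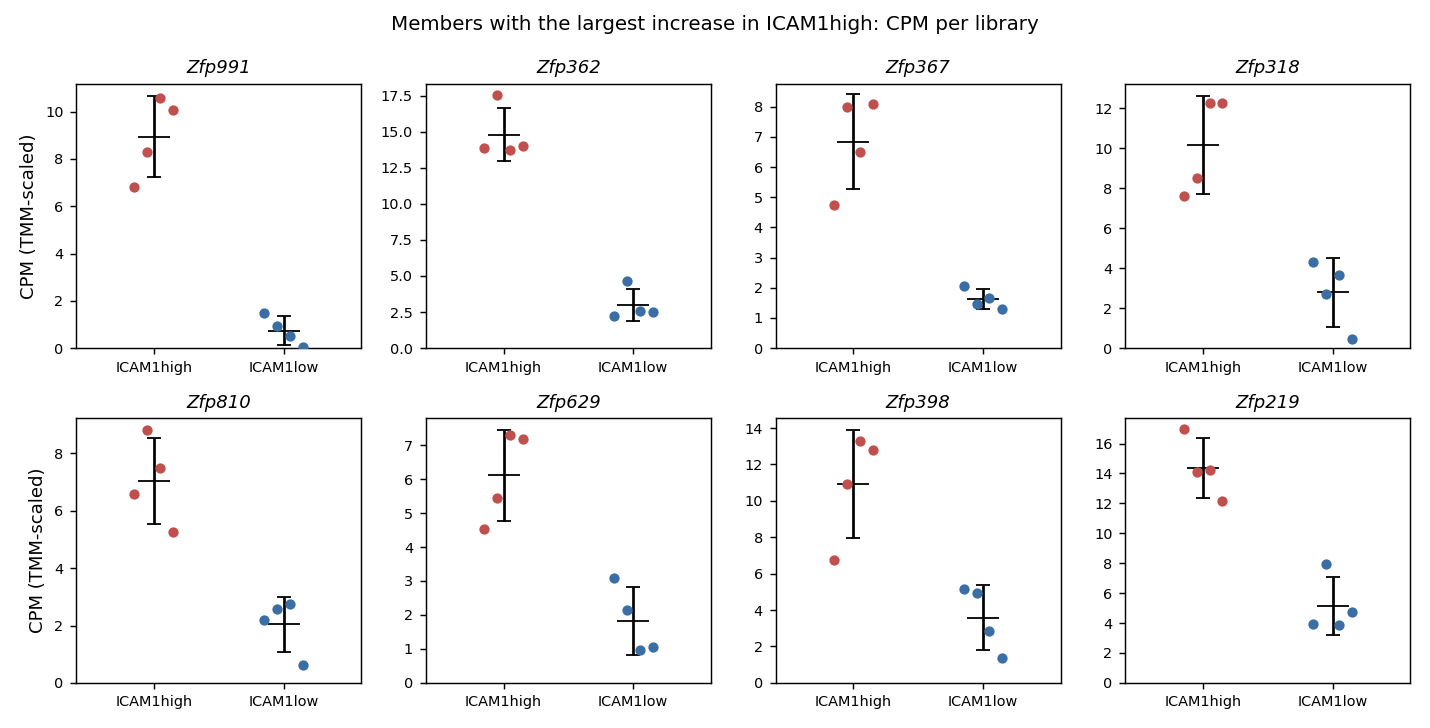
CPM (TMM-scaled, linear axis from 0) of the 8 named members with the largest increase, in each library (points), with the mean and SD of each fraction (black, n = 4). In all 8 genes, chosen for the size of their increase, every ICAM1high library lies above every ICAM1low library, against 23.4% of all genes tested. Zfp991, Zfp367, Zfp810 and Zfp629 met the count floor in ICAM1high only.

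Members with roles in RNA, ribosomes or ubiquitin were 6 higher (46.2%) and 1 lower (7.69%) of 13, against 22.6% and 19.6% of all genes, with a median of 0.15. With library totals 9 were higher and 0 lower, against 48.5% and 5.97% of all genes on that scale. Zfp385a, which encodes a p53-binding protein, measured 67.6, 52.4, 51.3 and 53.2 CPM in ICAM1high and 16.1, 21.2, 24.96 and 35.2 CPM in ICAM1low, at 1.20 (SE 0.23, adjusted p = 0.00225, edgeR). Zfp91, a ubiquitin ligase gene tied to non-canonical NF-kB signalling, measured 63.2, 90.8, 90.9 and 82.9 CPM against 50.8, 49.0, 47.5 and 44.2 CPM, at 0.78 (SE 0.16, adjusted p = 0.00284, edgeR). Neither gene overlapped between fractions. Zfp622, which acts in maturation of the large ribosomal subunit, was the gene that was lower: 84.6, 66.9, 65.1 and 67.9 CPM against 134.7, 114, 115 and 116 CPM, at -0.75 (SE 0.14, adjusted p = 0.0022, edgeR). It was at -0.08 with library totals and did not pass. Zfp451, a SUMO ligase gene, Zfp326, which couples elongation to splicing, and Zfp277, named after their values were seen, were higher at 0.91, 0.92 and 0.69.

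Zfp598, the ubiquitin ligase gene of collided ribosomes, did not pass, at 75.2 ± 8.72 against 75.9 ± 6.43 CPM (SD, n = 4) and a log2 fold change of -0.01 (SE 0.14). Of 16 partners in ribosome collision 3 were higher (18.8%, against 22.6% of all genes) and 0 lower. With library totals 13 were higher and 0 lower, against 48.5% and 5.97% of all genes on that scale. The 3 higher on the TMM scale were Abce1, which recycles ribosomes, at 0.94, Ascc2 at 0.82 and Map3k20, a ribotoxic stress kinase, at 0.94. Zfp207, a spindle assembly factor gene, was at 0.04 (SE 0.14) and Zfp638 at 0.03 (SE 0.30). Zfp598, Zfp207 and Zfp638 were named after their values were seen.

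Promoter and chromatin factors among the members were mostly not called. Of 19, 3 were higher (15.8%) and 4 lower (21.1%), against 22.6% and 19.6% of all genes. With library totals 10 were higher and 0 lower, against 48.5% and 5.97% of all genes on that scale. Zfp644, a partner of the histone methyltransferases G9a and GLP, was at 11.4 ± 3.33 against 4.40 ± 1.16 CPM (SD, n = 4), at 1.37 (SE 0.30, adjusted p = 0.00439, edgeR). Zfp467 was at 0.66 (adjusted p = 0.0263), a call lost without any of ICAM1high replicates 1, 3 and 4 or ICAM1low replicates 1 and 2. Zfp263 measured 113, 142, 181 and 179.7 CPM against 423, 244, 308 and 192 CPM, without overlap, at -0.92 (SE 0.25, adjusted p = 0.0143, edgeR). It did not pass with library totals (-0.24) or in replicates 3 and 4 alone. Zfp281, a repressor studied in stem cells, was also at -0.92 (adjusted p = 0.0302), with overlap between fractions. It did not pass with library totals (-0.23), in replicates 3 and 4 alone, or without ICAM1high replicate 1 or 2 or ICAM1low replicate 1 or 3. Zfp703, a gene amplified in breast cancer, was at -0.47 (adjusted p = 0.0348), did not pass without ICAM1high replicate 2, 3 or 4 or ICAM1low replicate 3, and turned to 0.22 with library totals. The fourth lower gene, named after its value was seen, was Zfp384 at -0.41.

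Zfp532 and the KRAB gene Zfp719 were also among the 8 largest decreases of members whose average log2 CPM was 2 or more. Zfp532 was at 3.46 ± 1.29 against 7.90 ± 1.82 CPM (SD, n = 4), or -1.18 in log2 (SE 0.31, adjusted p = 0.0122, edgeR). Zfp719 measured 7.36, 10.4, 10.4 and 12.8 CPM against 16.1, 19.3, 16.9 and 23.03 CPM, at -0.88 (SE 0.21, adjusted p = 0.00799, edgeR). The fractions did not overlap in either gene. Neither passed with library totals, at -0.49 and -0.18.

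**Figure D5:**
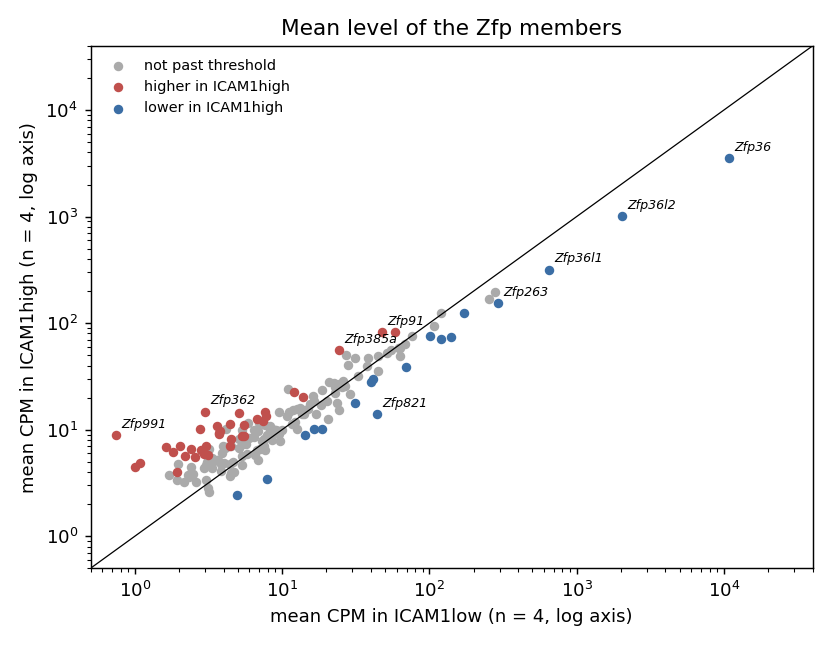
Mean CPM of each member in ICAM1low (x) and ICAM1high (y), both on log axes, n = 4 each, with the line of equality. The CCCH genes lie at the upper right below the line, and most members called higher lie at the lower left.

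The 127 members that did not pass had log2 fold changes from -0.71 to 1.28, with a median of 0.15. Their SE had a median of 0.27 and reached 0.785, so differences of the size called elsewhere could go uncalled in the noisier genes. Within fractions the members' median coefficient of variation was 0.204 in ICAM1high and 0.283 in ICAM1low, against 0.192 and 0.245 for all tested genes at the floor. Every ICAM1high library lay above every ICAM1low library in 41 members and below in 13, against 23.4% and 18% of all genes tested. In all, 122 members had a positive log2 fold change, and 165 had one with library totals.

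Many members lie in clusters of Zfp genes. Chromosome 7 held 37 of the members and 92 of the 394 Zfp genes, chromosome 17 held 18 of 46, and chromosome 13 held 15 of 36. Of the 70 members with at least 3 other Zfp genes within 500 kb, 18 were higher (25.7%) and 4 lower (5.71%), with a median of 0.40. Of the 81 members with no Zfp gene that near, 17 were higher (21%) and 11 lower (13.6%), with a median of 0.16. Of all genes tested, 22.6% were higher and 19.6% lower. The 13 members on chromosome 8 were 0 higher and 3 lower, and the 12 on chromosome 9 were 4 higher and 1 lower. The 18 higher members in clusters include Zfp991, which met the count floor in ICAM1high only, and no count was made without such members. No test of these subsets was made.

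Zinc finger genes under other names were counted by the same test, in which 22.6% of all genes were higher and 19.6% lower. Of 38 Zbtb genes, which carry a BTB domain, 8 were higher (21.1%) and 6 lower (15.8%) with a median of 0.20. Of 17 Zscan and Zkscan genes 6 were higher (35.3%) and 2 lower (11.8%) with a median of 0.75, and of 17 Zc3h genes, CCCH proteins like those of the Zfp36 family, 1 was higher (5.88%) and 4 lower (23.5%) with a median of 0.08. No test of these families against the members was made.

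As a share of each library, the members took 1.09 ± 0.0417% of counts in ICAM1high and 1.38 ± 0.110% in ICAM1low (SD, n = 4). Without the 3 CCCH genes the order turned, with 0.469 ± 0.0805% in ICAM1high and 0.310 ± 0.0648% in ICAM1low, and ICAM1high replicate 1 (0.351%) then lay below ICAM1low replicate 1 (0.382%). Of all 394 Zfp genes, 342 ± 9.50 had at least 1 count in ICAM1high and 311 ± 22.3 in ICAM1low (SD, n = 4). Library totals ran from 10328575 to 20625309 in ICAM1high and from 16768777 to 22751975 in ICAM1low. The TMM factors that scale these totals were 1.18 to 1.34 in ICAM1high and 0.705 to 0.865 in ICAM1low. Detection was not compared at equal depth. A further 106 Zfp genes under the floor were tested, of which 18 were higher (17%) and 5 lower (4.72%), against 22.6% and 19.6% of all genes. Another 107 were not tested, 35 of them at 0 in every library.

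The count floor itself left close cases on both sides. Just inside it, the fourth highest count was 52 in Zfp790, 53 in Zfp760 and 54 in Zfp386, and just outside it was 46 in Zfp157 and 47 in Zfp677 and Zfp296.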

How the data were processed

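The authors deposited 1 table of raw read counts per gene for 8 libraries, each made from 100 ng of total RNA per the labels' protocols. The submitters' processing notes name HISAT2 and mm10. No source used here names the counting tool, annotation release or strand setting. Of the 394 Zfp genes, all were found in GENCODE M21 and 382 had the same position there. The deposited gene length was used only for levels per kb.

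Members and gene lists were chosen with earlier results of these data known, so no set test was run. The whole table was fitted in R 4.3.3 with edgeR 4.0.16: filterByExpr by fraction (14051 genes, all 181 members among them), TMM scaling, and the quasi-likelihood F test with Benjamini-Hochberg adjustment over all genes. Each standard error is the size of the log2 fold change over the square root of its F. Alternatives included DESeq2 1.42.0, limma-voom (limma 3.58.1), other scalings and filters, and each library left out. Named genes were the 8 largest calls each way whose average log2 CPM was 2 or more, the 5 highest per kb, up to 4 members of each member list and 3 genes of each other list by smallest p, and 3 genes on each side of the count floor.

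KRAB and SCAN domains were searched with profiles built from Zfp proteins in pyhmmer (E under 0.001), and C2H2 fingers by their cysteine and histidine spacing. A domain that was not found may still be present. Depth (10328575 to 22751975 counts) limits how precisely low genes are measured.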

Additional observations from a re-analysis of the deposited data

Results flagged for a closer look

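For the named genes, the CPM of 1 library stood apart from the other 3 of its fraction in 9 of 86 groups of 4, by Dixon's criterion at the 95% level; chance flags about 1 in 20 groups. In ICAM1high replicate 1, Dcp2 was at 13.16 CPM against 21.91 to 23.49 in the others, Zfp644 at 6.377 against 12.94 to 13.20, Zfp385a at 67.59 against 51.26 to 53.23, and Zfp622 at 84.63 against 65.11 to 67.94. Zfp362 was apart in replicate 2 of both fractions, at 17.54 CPM against 13.76 to 14.03 in ICAM1high and at 4.647 against 2.201 to 2.588 in ICAM1low. In ICAM1low, Map3k20 was at 3.432 CPM in replicate 4 against 5.81 to 5.87, Zfp622 at 134.7 in replicate 1 against 114.4 to 115.9, and Zfp703 at 218.4 in replicate 3 against 156.5 to 160.0.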

How the results depend on the processing

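RLE and upper-quartile scaling, DESeq2, limma-voom, robust dispersion, no filter, the stricter filter and the run of library numbers as a covariate kept the members' counts within 1.5 times of 36 higher and 18 lower. Library totals gave 121 and 2, a median of 0.96 and 63 calls in the other gene lists against 33. Replicates 1 and 2 alone gave 9 higher, a median of 0.13 and 12 list calls, and replicates 3 and 4 alone gave 19 higher, 4 lower and 15 list calls. Among the members chosen by the naming rule and called in the main fit, Zfp318, Zfp809, Zfp467, Zfp703, Zfp532 and Zfp719 passed in neither. Zfp398, Zfp629, Zfp91 and Zfp622 did not pass in replicates 1 and 2 alone. Zfp810, Zfp385a, Zfp263, Zfp281 and Zfp36l2 did not pass in replicates 3 and 4 alone. Of the other genes chosen by that rule and called, Abce1, Map3k20 and Zfp296 passed in neither. Ascc2, Dnmt1 and Mapkapk2 did not pass in replicates 1 and 2 alone, nor did Smarcad1 in replicates 3 and 4 alone. Leaving out 1 library, or both that stood apart, gave 22 to 44 higher, 10 to 21 lower, medians of 0.22 to 0.28 and 21 to 38 list calls, the lowest of these without ICAM1high replicate 3. A floor of 100 counts gave 22 higher. Same-numbered libraries correlated at -0.57, 0.21, 0.18 and -0.30 after removal of group means, and 3 of 8 libraries matched their own number best. That check cannot decide whether the numbers are pairs, as replicates 1 and 4 include the libraries that stood apart. The main fit was unpaired because the labels state no pairing. With the replicate block 21 members were higher and 9 lower, against 16.1% and 14.1% of all genes, with 20 list calls. Of the genes chosen by the naming rule, Zfp263, Zfp281, Zfp467, Zfp703 and Zfp296 then no longer passed. Genes named after their values were seen were not checked singly in these fits. Zfp677, outside the floor and at 0.22, changed sign to -0.24 in replicates 1 and 2, -0.03 without ICAM1low replicate 4 and -0.01 without that library and ICAM1high replicate 1, and was at most 0.40 with a library left out. Zfp703 changed from -0.47 to 0.22 with library totals. The causes were not tested. Low counts limit the precision of members near the count floor.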
